A study of Macaca mulatta with 60 samples.

Results

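The values below concern 3 microRNA transcripts, those of miR-205 (ENSMMUT00000036624), miR-224 (ENSMMUT00000036578) and miR-452 (ENSMMUT00000036785), of 26149 transcripts on a rhesus macaque array. All 3 were selected on differences seen in these arrays. miR-205 and miR-224 were chosen by the difference between Bisphenol A (BPA) exposed and control left ventricles in late gestation. miR-452 was chosen by the same difference in the right ventricle and as a neighbour of miR-224 in the genome. Those 3 differences are therefore given as a description with no test, and the calls that they meet support nothing. The microRNA names and their pairing with array transcripts came from the study's tables.

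Levels came from 60 arrays of female fetuses, 12 for each of 5 tissues. The heart gave 4 of them, the ventricles of the left (LV) and right side (RV) and the atria of the left (LA) and right side (RA). The fifth was biceps femoris muscle (BFM), a skeletal muscle of the thigh. Dams of the BPA groups ate fruit that carried 400 µg/kg/day of deuterated BPA in ethanol, and control dams were given fruit with ethanol only. Dosing ran from day 50 to day 100 in early gestation (EG) and from day 100 to term in late gestation (LG). Each of the 4 groups had 3 fetuses. Fetuses 1 to 3 were controls and 4 to 6 BPA exposed in EG, and 7 to 9 were controls and 10 to 12 BPA exposed in LG. Samples with the same number in their titles were taken as the same fetus across tissues, which neither the titles nor the paper state. EG fetuses were taken by caesarian section and LG fetuses after vaginal birth, so gestational age and mode of delivery cannot be told apart.

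MicroRNAs are cut from longer primary transcripts by way of a hairpin precursor, and the mature strand then lowers the output of messenger RNAs that it pairs with. miR-205 is best known from epithelia, where it holds down the transcription factors ZEB1 and ZEB2 and so helps to keep the epithelial state. miR-224 and miR-452 lie within the span of GABRE, the gene of a GABA-A receptor subunit, and both are placed there in the RefSeq gene table of assembly T2T-MMU8v2.0. None of the 3 is a defining transcript of heart muscle. The probes of this array are longer than a mature microRNA, and small RNAs had a single probe or a pair of probes each. The values therefore describe hairpin or primary transcripts, not mature microRNAs. The array was designed on the Mmul_1 build, for which no coordinates were used here. In whole tissue, fewer cells of a type and less RNA per cell cannot be told apart.

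The deposited values are log2 levels that the authors background corrected and normalized within each tissue, so a level can be compared within a tissue only. In LV the bottom value of an array was -1.20 to 0.63, where 71 to 810 transcripts shared it, against 3.12 to 4.29 in the other tissues, where 1 or 2 did. A transcript at that lowest value has only an upper limit. The low end of the LV arrays was also stretched, since percentile 10 lay 2.10 to 3.85 above percentile 1 on the log2 scale there and 0.43 to 0.58 above it in the other tissues. The same change of rank at the low end therefore gives a larger log2 difference in LV than elsewhere. Myh6, the alpha myosin heavy chain of heart muscle, ranked at or above percentile 99.8 on all atrial arrays. It ranged from percentile 38.0 to 99.9 in LV, from 41.6 to 99.9 in RV and from 31.7 to 83.3 in BFM. BMP10, a growth factor of atrial muscle, ranked between percentile 95.9 and 99.1 in RA and no higher than 69.1 elsewhere, LA included, where its highest rank was 36.9. KCNA5, an atrial potassium channel subunit, ranked between 62.1 and 78.9 in the atria and no higher than 58.8 elsewhere. No table paired a skeletal muscle marker with an array transcript, so BFM was not checked in that way.

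miR-224 sat at the low end of the arrays in all 5 tissues. In BFM its level ran from 4.48 to 4.91 with a median of 4.73, and all 12 arrays placed it below percentile 10. In RV it ran from 3.54 to 4.45 with a median of 3.96, and 9 of 12 arrays placed it below percentile 10. RA had levels from 3.49 to 4.57 with a median of 4.01, and 10 of 12 arrays placed it there. LA levels ran from 3.69 to 5.31 with a median of 4.30, and 6 of 12 arrays did so. In LV the range was the widest, from -0.93 to 4.78 with a median of 2.65, again with 6 of 12 arrays below percentile 10. Over all 60 arrays the highest rank of miR-224 was percentile 31.2, on 1 LG BPA array of LA.

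miR-205 had a similar place. Its median percentile was 7.65 for LV, 7.42 for RV, 7.22 for LA, 6.89 for RA and 12.4 for BFM, and these neighbouring medians differed by less than the spread between the fetuses of any tissue. Levels ran from 0.54 to 3.76 in LV, from 3.87 to 4.86 in RV and from 3.62 to 5.78 in LA. RA held the single highest rank, percentile 40.4 at a level of 6.10 in EG BPA fetus 5, and also the lowest, percentile 0.0344 at a level of 3.46 in LG control fetus 9. BFM levels ran from 5.04 to 6.08 with a median of 5.29. No array ranked miR-205 or miR-224 above the middle of its transcripts.

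miR-452 had the widest range of ranks of the 3 transcripts. Its percentile ran from 11.5 to 82.7 in LV with a median of 58.7, from 0.182 to 70.8 in RV with a median of 49.4, and from 8.14 to 48.8 in LA with a median of 34.5. In RA it ran from 1.36 to 64.8 with a median of 47.1, and in BFM from 2.56 to 74.0 with a median of 23.7. It ranked above percentile 50 on 8 of 12 LV arrays, on 6 each of RV and RA, on 3 of BFM and on 0 of LA. Probes differ in brightness, so these ranks do not order the 3 transcripts by abundance.

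**Figure D1:**
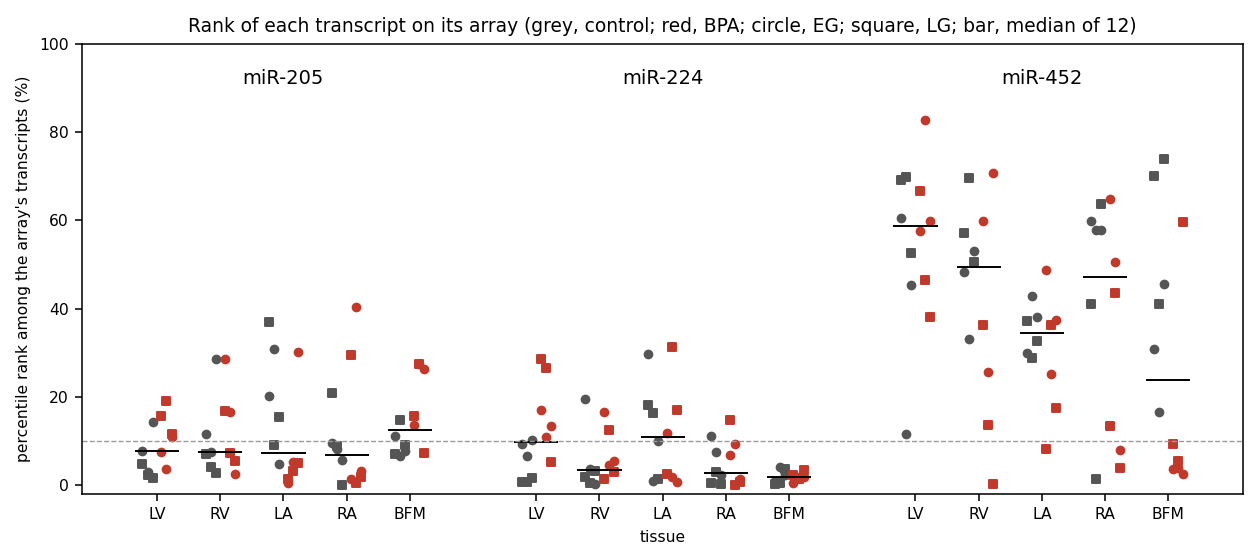
Percentile rank (vertical axis, in percent of the array's transcripts) of miR-205, miR-224 and miR-452 on each array, by tissue (horizontal axis), with controls in grey, BPA in red, EG as circles, LG as squares and the median of 12 arrays as a bar. The dashed line marks percentile 10, below which all 12 BFM values of miR-224 lie, whereas miR-452 spreads from 0.182 to 82.7.

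A transcript was called changed when groups differed by 1 or more on the log2 scale with an unadjusted limma p no larger than 0.01, among transcripts with an interquartile range of 0.5 or more over the 12 arrays of the tissue. The study's methods set these criteria. Of the 15 combinations of a member with a tissue, 11 passed that filter, and miR-205 and miR-224 failed it in both RV and BFM. Values for those 4 come from a fit without the filter. With 3 fetuses against 3, the smallest p of an exact two-sided permutation test is 0.1.

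LG fetuses had LV readings of miR-205 that chose it, at 1.40, 0.54 and 0.63 in controls and 3.48, 3.76 and 3.07 after BPA. Its difference was 2.58 (SE 0.58). miR-224 read -0.93, -0.90 and 0.63 in controls, each the lowest value of its array, and 4.78, 4.45 and 1.84 after BPA, a difference of 4.09 (SE 0.72). BPA and control fetuses did not overlap for either transcript, as for 8.21% of LV transcripts in this contrast, and the same values chose both. With every LV value below 0.63 raised to 0.63, the highest of the arrays' lowest values, miR-224 was at least 8.36-fold higher after BPA, and the deposited values as they stand give 17.1-fold. The corresponding bound for miR-205, with 1 control at its array's lowest value, was 5.86-fold. As ranks, miR-224 in the BPA fetuses stood at percentile 28.5, 26.5 and 5.13, and miR-205 at 15.5, 19.0 and 11.6, so both transcripts remained in the lower part of these arrays after exposure.

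miR-452 in the same LV arrays read 8.39, 8.38 and 6.80 in LG controls and 8.13, 6.19 and 5.57 in LG BPA fetuses. The groups overlapped, and BPA fetuses averaged 1.23 lower (SE 1.09, limma adjusted p = 0.983, exact permutation p = 0.2). In EG the LV order was the other way, with 7.61, 3.25 and 6.19 in controls and 7.34, 9.67 and 7.50 after BPA. That difference of 2.49 (SE 1.09, limma p = 0.0433, adjusted p = 0.982, exact permutation p = 0.3) was not called. Without fetus 1, a control, the difference was 3.45 and met the criteria, and without fetus 2, also a control, it was 1.27 and did not.

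**Figure D2:**
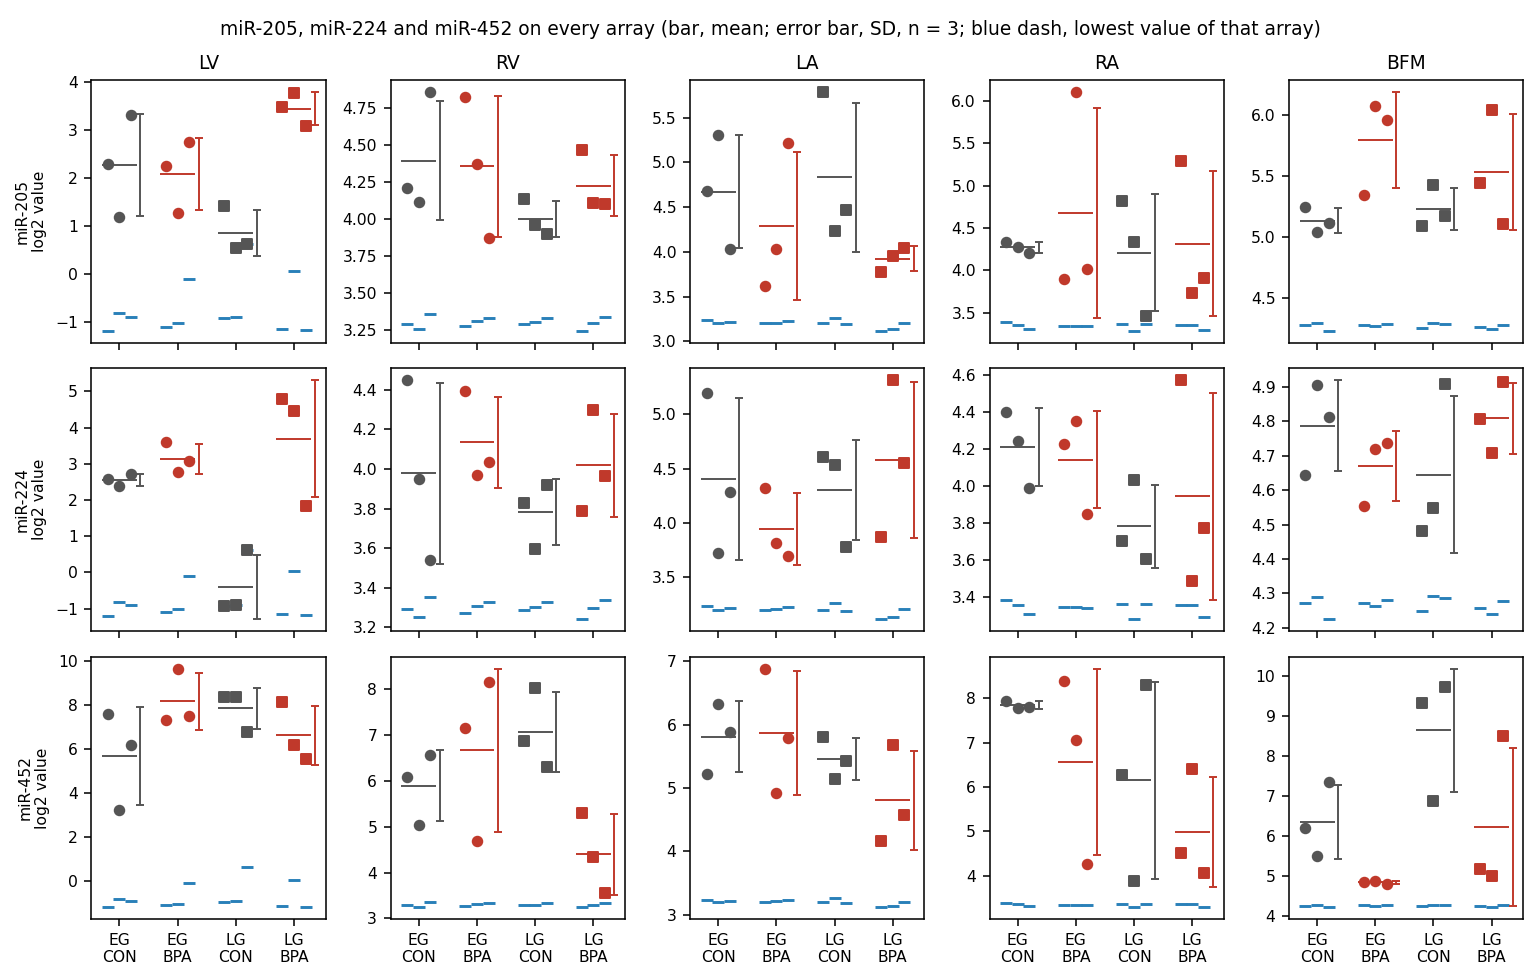
Deposited log2 value (vertical axes, a scale of its own in each panel) of miR-205, miR-224 and miR-452 on all 60 arrays, by group and tissue; horizontal bars are means, error bars SD (n = 3) and blue dashes the lowest value of each array. In LV the 3 LG control points of miR-224 lie on the dashes, and in RV the LG BPA points of miR-452 lie below all LG controls.

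In LV of EG fetuses, miR-224 read 2.58, 2.39 and 2.72 in controls and 3.59, 2.77 and 3.07 after BPA. All 3 BPA fetuses lay above the controls, by an average of 0.58 (SE 0.72, limma adjusted p = 0.989, exact permutation p = 0.1). miR-205 overlapped fully, at 2.29, 1.18 and 3.31 in controls and 2.24, 1.26 and 2.74 after BPA (difference -0.18, SE 0.58, limma adjusted p = 0.995).

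The EG controls of LV were also well above the LG controls for miR-224. The LG control mean of -0.40 ± 0.89 (SD, n = 3) compares with 2.56 ± 0.17 in EG controls, a difference of -2.96 that met the criteria, as 2.95% of LV transcripts did. It uses the same LG controls as the difference that chose miR-224 and is a description with no test, and those controls have only upper limits. miR-205 had the same order, 2.26 ± 1.07 in EG against 0.85 ± 0.47 in LG controls (SD, n = 3 each). The 3 LG BPA fetuses of LV lay at 3.44 ± 0.34 for miR-205 and 3.69 ± 1.61 for miR-224, so EG fetuses of either treatment fell between the LG groups on average.

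Other transcripts moved in the same LV arrays. Myh6 read 14.2, 14.4 and 14.2 in LG controls, 7.62, 13.4 and 5.56 in LG BPA fetuses and between 5.69 and 7.16 in all 6 EG fetuses. LG BPA fetus 11 kept a high Myh6 level of 13.4 and had the highest miR-205 level of LV, 3.76, and a miR-224 level of 4.45. Of 4 transcripts of stratified epithelium, 1 was called in LV of LG fetuses: PROM2, a membrane protein of epithelial cells, rose by 1.43 (SE 0.42, limma adjusted p = 0.983). The summed log2 level of the 4 epithelial transcripts was 19.6 to 20.0 in LG controls and 21.0 to 21.1 in LG BPA fetuses. These sums did not overlap, as was the case for 8.21% of single LV transcripts in this contrast. The list did not move one way: mean levels of PROM2 (4.81 to 6.25) and SLURP1 (4.94 to 5.63) were higher after BPA, and those of DSC3 (3.25 to 2.88) and SPINK5 (6.80 to 6.29) were lower. DSC3, a desmosomal cadherin, ranked between percentile 8.52 and 20.1 there. In EG, where neither microRNA was called, DSC3 rose by 1.76, SPINK5 rose by 1.51 and SLURP1 fell by 1.74 in LV (limma adjusted p = 0.982 each). KLF1, an erythroid transcription factor, fell there by 1.44, from 5.82 ± 0.37 to 4.39 ± 0.13 (SD, n = 3 each) without overlap (limma adjusted p = 0.982), beside the miR-224 groups that also did not overlap. The parts that epithelial RNA, erythroid RNA and Myh6 have in the microRNA differences were not tested. In LG fetuses, KCNA5 fell by 1.49 in LV after BPA (SE 0.48, limma adjusted p = 0.983). No leukocyte, erythroid or smooth muscle transcript of the 5 examined was called in LV of LG fetuses.

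In RV, LG controls had miR-452 levels of 6.86, 8.01 and 6.30, and LG BPA fetuses had 5.30, 4.33 and 3.55. This difference of -2.66 (SE 0.76) chose miR-452, and the groups did not overlap. As ranks the fall ran from percentile 57.0, 69.7 and 50.6 to 36.3, 13.5 and 0.182, so fetus 12 ended at the bottom of its array. Without fetus 8 or fetus 12 the difference was -2.19 or -2.24 and no longer met the criteria. With array weights, which did not converge in RV, it was -1.34 (SE 1.30). Of 12 marker transcripts of heart muscle, smooth muscle, blood and epithelium, 0 were called in RV of LG fetuses, and 0 in BFM. In EG the RV levels were 6.08, 5.04 and 6.56 in controls and 7.14, 4.69 and 8.15 after BPA, which overlapped (difference 0.77, SE 0.76, limma adjusted p = 1). miR-205 and miR-224 had RV differences between -0.04 and 0.24 in the 2 windows and 95% intervals from -0.66 to 0.85 for miR-205 and from -0.42 to 0.82 for miR-224.

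Outside the ventricles, BFM held the largest differences of miR-452. BFM controls of EG read 6.21, 5.50 and 7.34, and EG BPA fetuses read 4.87, 4.89 and 4.81. The BPA fetuses all lay below the controls with an SD of 0.04, at percentiles 2.56 to 3.76 (difference -1.50, SE 0.93, limma p = 0.135, exact permutation p = 0.1). In LG the BFM controls read 9.33, 6.87 and 9.72, and BPA fetuses read 5.18, 5.00 and 8.50. Fetus 12 overlapped the controls, and the difference was -2.41 (SE 0.93, limma p = 0.0245, adjusted p = 0.836, exact permutation p = 0.2). Without fetus 8 it was -3.30 and without fetus 12 it was -3.55, and both met the criteria. Without fetus 11 it was -1.80 and did not meet them. A mean of the EG and LG effects, a contrast chosen after these values were seen, was -1.96 (SE 0.66, limma p = 0.0124, adjusted p = 0.998, exact permutation p = 0.0584), short of the criteria that 0.197% of BFM transcripts met. Over all 12 fetuses it met them with a trend and robust prior variance and with array weights, at -1.96 under both. Without fetus 8 or fetus 12 it was -2.40 or -2.52 and also met them, and without fetus 11 it was -1.65 and did not.

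miR-205 in BFM ran opposite in sign. EG controls read 5.24, 5.04 and 5.11 and EG BPA fetuses read 5.35, 6.08 and 5.96, without overlap (difference 0.67, SE 0.25, limma p = 0.0201, exact permutation p = 0.1). This difference came from the fit without the filter on variation, was smaller than the criteria ask and was not called. LG fetuses overlapped, at 5.09, 5.42 and 5.17 in controls and 5.44, 6.05 and 5.10 after BPA (difference 0.30, SE 0.25, exact permutation p = 0.4). miR-224, between 4.48 and 4.91 in BFM, had differences of -0.12 in EG and 0.16 in LG.

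In RA, miR-452 was tight in EG controls at 7.95, 7.78 and 7.80. The EG BPA fetuses spread over 8.38, 7.06 and 4.26. LG controls read 6.26, 3.87 and 8.30 and LG BPA fetuses 4.51, 6.40 and 4.05. Groups overlapped in both windows (differences -1.27 and -1.16, SE 1.06, limma adjusted p = 1 and 0.961). In LA the levels were 5.22, 6.33 and 5.88 in EG controls, 6.88, 4.93 and 5.79 in EG BPA, 5.80, 5.13 and 5.42 in LG controls and 4.17, 5.68 and 4.57 in LG BPA fetuses. The LG difference of -0.65 (SE 0.51) again left overlap. LA was the only other place where a member's LG groups did not overlap: miR-205 read 5.78, 4.24 and 4.47 in controls and 3.77, 3.95 and 4.04 after BPA, lower by 0.91 on average (SE 0.49, limma adjusted p = 0.884, exact permutation p = 0.1), against the direction in LV. Without control fetus 7 this difference was -0.43. In the same LA contrast ALAS2, an erythroid enzyme of heme synthesis, rose by 2.81, and the leukocyte transcripts CTSS and LCP2 rose by 1.25 and 1.17 (limma adjusted p = 0.836, 0.825 and 0.847). Their part in the miR-205 difference was not tested.

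Over all 15 combinations, 0 were called in EG, where 7 of the 15 differences had a size below 0.40 and limma gave an unadjusted p under 0.05 to 2. The criteria were met in EG by 0.925% of all transcripts tested for LV, 0.615% for RV, 0.582% for LA, 0.439% for RA and 0.267% for BFM. Groups did not overlap in 3 combinations, miR-224 in LV and miR-205 and miR-452 in BFM, where 10.7% of LV and 11.6% of BFM transcripts had such groups. These shares are over transcripts that passed the filter on variation, which miR-205 failed in BFM, and without the filter the BFM share was 10.2%. That share was 18.6% in RV, 9.07% in LA and 6.11% in RA, with no member among them. In LG, 3 combinations were called, those that chose the members, against 0.84% of all transcripts for LV, 0.549% for RV, 1.09% for LA, 0.439% for RA and 0.825% for BFM. Groups did not overlap in 4, the same 3 and miR-205 in LA, against 8.21% of transcripts for LV, 4.51% for RV, 10.6% for LA, 7.58% for RA and 6.18% for BFM. In the 4 tissues that did not choose it, the LG difference of miR-452 was below 0, from -2.41 to -0.65, as it was for 9.04% of all 26149 transcripts in those 4. The LG difference of miR-224 was above 0 in the 4 tissues other than LV, from 0.16 to 0.28, as for 11.6% of all transcripts. If equal numbers mark the same fetus, the same 6 fetuses gave every tissue, so these cannot be read as 4 independent results.

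**Figure D3:**
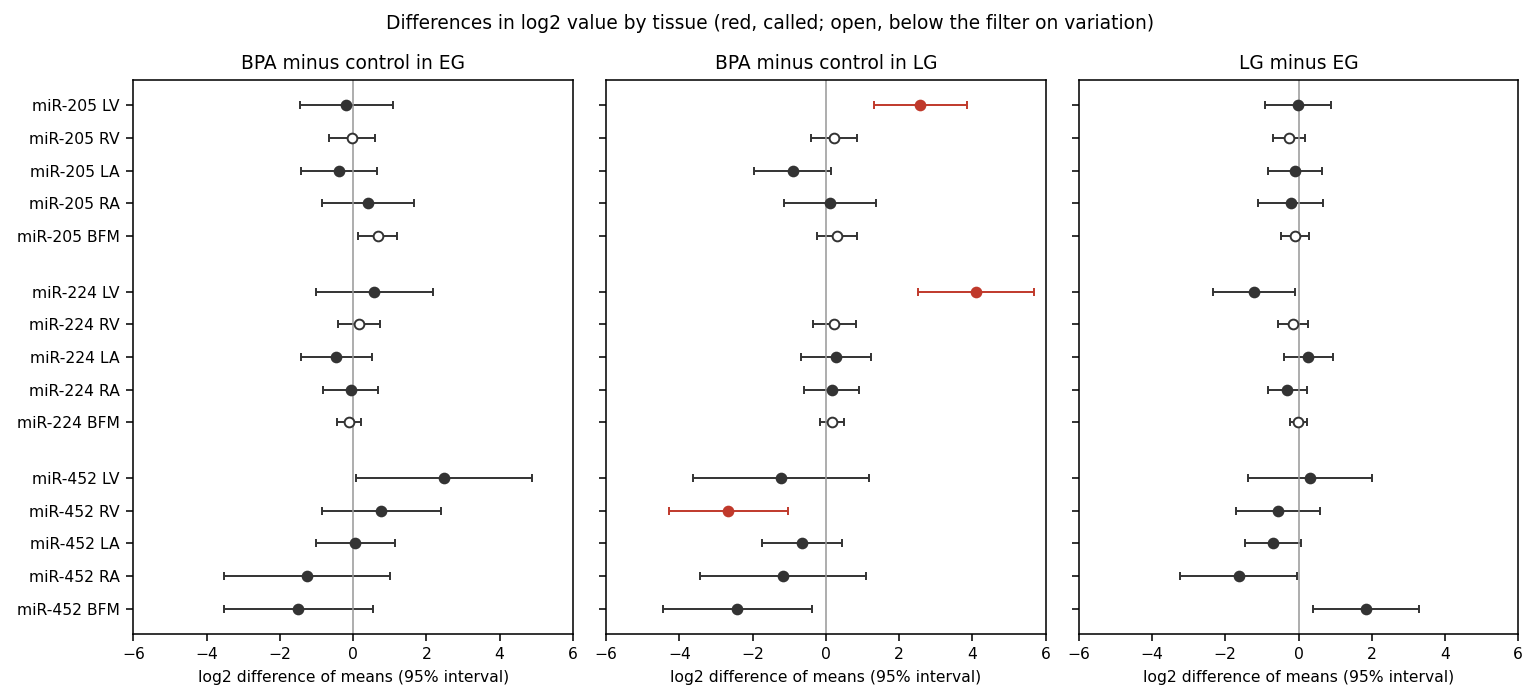
Differences of group means on the log2 scale (horizontal axis) with 95% intervals for each member and tissue: BPA minus control in EG and in LG (n = 3 against 3) and LG minus EG (n = 6 against 6). Red points are called and open points are below the filter on variation; the 3 red points are the differences that chose the members, at 2.58, 4.09 and -2.66.

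The effect of BPA in LG minus its effect in EG was called for 3 of 15 combinations, miR-205 in LV, miR-224 in LV and miR-452 in RV. Each contains the difference that chose the member and is a description. The share of all transcripts that met the criteria for this contrast was 1.17% for LV, 0.515% for RV, 1.23% for LA, 0.332% for RA and 0.499% for BFM. For miR-452 in LV, which no choice used, the contrast was -3.72 (SE 1.55, limma adjusted p = 0.859) and was not called. Without fetus 1 it was -4.68 and met the criteria, and without fetus 2 it was -2.50 and did not.

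LV and RV share fetus numbers but differ in their low-end scales, so a difference between their BPA effects mixes the effect with the scale. For miR-205 and miR-224 no difference between ventricles can be read from it. As ranks in RV of LG fetuses, miR-205 stood at percentile 7.13, 4.16 and 2.78 in controls and 16.8, 7.37 and 5.43 after BPA, which overlapped. miR-224 stood there at 1.78, 0.371 and 3.17 in controls and 1.25, 12.5 and 3.04 after BPA, again with overlap. For miR-452, which ranked higher on most arrays, the EG effect in LV minus that in RV was 1.72 (SE 1.42, limma adjusted p = 1), where 0.993% of transcripts were called. It was -0.01 without fetus 5 and 2.80 without fetus 6. In LG, where the RV effect chose miR-452, the same contrast was 1.44 (SE 1.42), and 0.753% of transcripts were called. Both values mix effect and scale too. Control fetus 2 of EG ranked at percentile 11.5 in LV, and BPA fetus 5 of EG at 25.6 in RV. BPA fetuses 11 and 12 of LG ranked at 13.5 and 0.182 in RV. Percentile 30 lay 4.20 to 5.90 above percentile 1 in LV and 1.11 to 1.43 above it in RV.

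Gestation was compared by the mean of both LG groups minus the mean of both EG groups. For miR-205 and miR-224 in LV and miR-452 in RV it holds the LG arrays that chose the member, so those 3 values are a description. None of the 15 combinations was called. The share of all transcripts that met the criteria was 5.25% for LV, 11.5% for RV, 7.48% for LA, 6.89% for RA and 25.4% for BFM. Of the 12 combinations outside that choice, limma gave an unadjusted p under 0.05 to 2. miR-452 in BFM was higher in LG by 1.83 (SE 0.66, limma p = 0.0173, adjusted p = 0.0286, exact permutation p = 0.0866), where 64% of BFM transcripts had an adjusted p of at most 0.05. Without fetus 8 or fetus 11 the difference was 2.28 or 2.14 and met the criteria, and without fetus 12 it was 1.27 and did not. miR-452 in RA was lower in LG by 1.64 on average (SE 0.75, limma adjusted p = 0.225, exact permutation p = 0.104). Without fetus 6 or fetus 9 it met the criteria at -2.21 or -2.18, and without fetus 8 it was -1.07 and did not. miR-224 in LV was lower in LG by 1.21 on average, with all 3 LG controls at their array's lowest value, and by 0.69 with low values raised to 0.63. For miR-205 the difference lay between -0.26 and -0.02 in all 5 tissues.

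Other microRNA transcripts gave few calls in the gestation contrast as well. Of 25 with a miR name in the study's tables, which the study listed for BPA contrasts of these samples, 25 were tested in LV and 1 fell. miR-184 was that one, lower in LG by 3.73 (SE 0.65, limma adjusted p = 0.0219). In BFM 14 were tested: miR-612 rose by 1.97 (SE 0.38, limma adjusted p = 0.000847) and miR-487a fell by 4.86 (SE 0.40, limma adjusted p = 3.13e-06). RV had 0 of 21 called. LA had 1 of 19, miR-346, which fell by 1.11 (SE 0.37, limma adjusted p = 0.0742). RA had 1 of 22, again miR-487a, which fell by 1.49 (SE 0.31, limma adjusted p = 0.0101). In each tissue these counts are a smaller share than the share of all transcripts given above for that tissue, so they are no result about microRNAs. The median difference of these microRNAs was -0.12 in LV and -0.01 in BFM, beside -0.01 and -0.04 over all transcripts tested.

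miR-224 and miR-452 lie in the same host gene, and their levels were set against each other over the 12 fetuses of each tissue. Pearson's r was -0.16 for LV, -0.19 for RV, -0.01 for LA, 0.09 for RA and 0.10 for BFM, and Spearman's rho was -0.08, -0.18, -0.13, 0.11 and 0.22. Permutation p-values adjusted over the 15 relations of the 3 pairs in 5 tissues were 0.846 or more for this pair. Without the 2 fetuses farthest from the median of miR-224, r was 0.25 for LV, -0.48 for RV, 0.00233 for LA, 0.36 for RA and 0.37 for BFM. For deviations from group means it was 0.11, -0.13, 0.25, -0.17 and 0.40 in the same order, so no sign held over the tissues. A member's median r with all transcripts of its tissue lay between -0.04 and 0.04, which does not give the spread of single values. Among the r of miR-224 with all transcripts of a tissue, that with miR-452 stood between percentile 29.9 in LV and 62.7 in BFM.

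miR-205 and miR-224 had r of 0.74 in LV (rho 0.68), a description with no test, since these LV arrays chose both. It fell to 0.59 without the 2 fetuses farthest from the median of miR-205, 8 and 9, and to 0.24 for deviations from group means. The LV relation spans the LG groups that chose both transcripts and did not hold within groups. In RA, r was 0.62 (rho 0.69, permutation p = 0.0285, adjusted p = 0.142) and 0.66 for deviations from group means, and it was 0.37 without fetuses 5 and 10, on which it rested. In RV, LA and BFM it lay between -0.15 and -0.0022.

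miR-205 and miR-452 ran opposite in BFM, with r of -0.65 (rho -0.69, permutation p = 0.0219, adjusted p = 0.142). Only 0.493% of transcripts had an r with miR-205 as low in that tissue. Without fetuses 5 and 11 r was -0.57, and for deviations from group means it was -0.57 (permutation p within groups = 0.19). In the heart r of this pair lay between -0.16 and 0.26. None of the 15 relations had an adjusted p below 0.05.

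**Figure D4:**
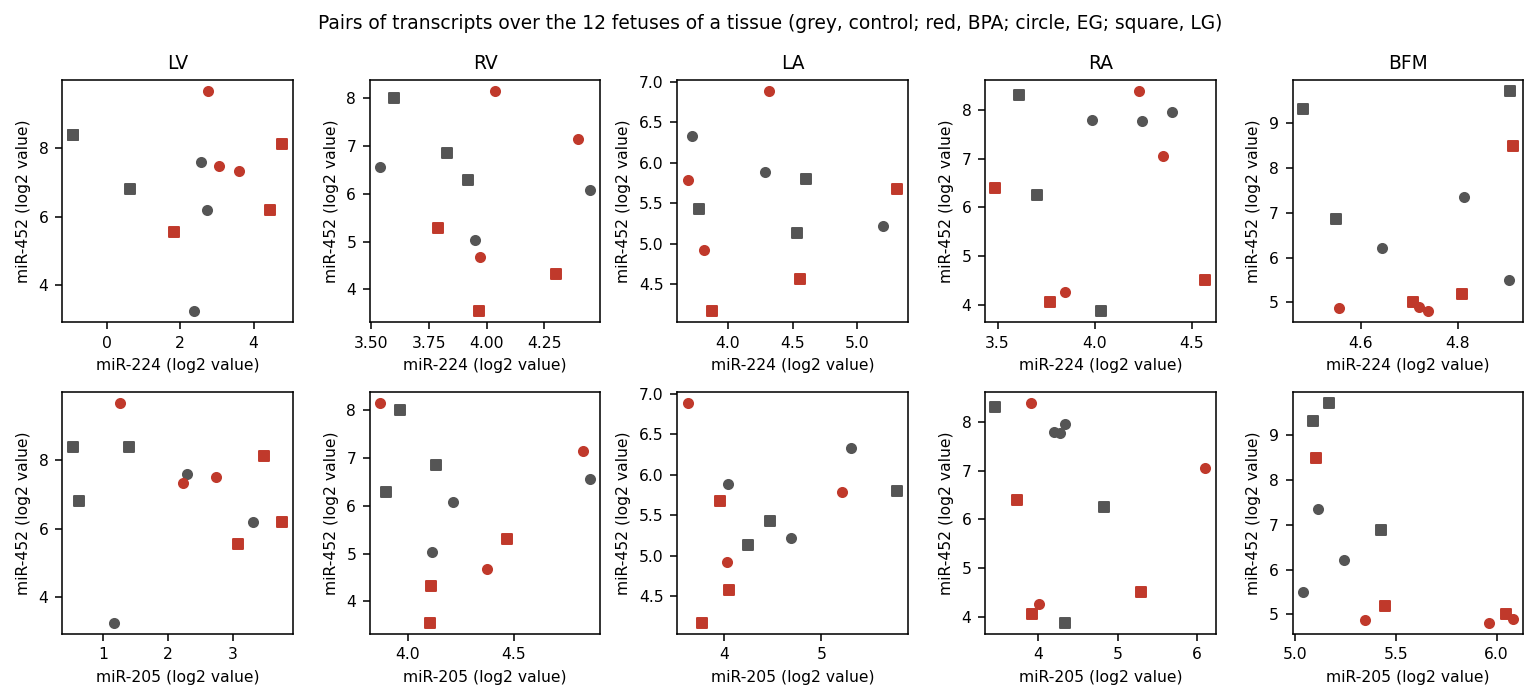
Log2 values of miR-452 (vertical axes) against miR-224 (top) and miR-205 (bottom) in the 12 fetuses of each tissue, with controls in grey, BPA in red, EG as circles and LG as squares; axes differ between panels. The top row shows no slope, with r from -0.19 to 0.10, and the bottom right panel shows the BFM relation with r of -0.65.

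Likeness was measured as the mean over 5 tissues of Pearson's r over 12 arrays, among 26148 other transcripts. For miR-205 the closest were ENSMMUT00000048554 (mean r 0.54, from 0.44 to 0.64), ENSMMUT00000035556 (0.52) and ENSMMUT00000036076 (0.52). For miR-224 they were ENSMMUT00000026676 (0.53), ENSMMUT00000022553 (0.51, from 0.44 to 0.55) and ENSMMUT00000021853 (0.46). For miR-452 they were ENSMMUT00000017202 (0.56), ENSMMUT00000014224 (0.55) and ENSMMUT00000027332 (0.54). No table used here names these 9. miR-452 ranked 14657th in likeness to miR-224 (mean r -0.03) and 21817th to miR-205 (-0.14), and miR-224 ranked 2079th to miR-205 (0.22). Genes and arrays are shared in these values, which describe the arrays and carry no test.

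Samples with the same fetus number did not stand out alike across tissues. Equal numbers are only assumed to mark the same fetus, and most miR-205 and miR-224 levels lay below percentile 10. These values therefore cannot decide whether a fetus stands out alike in its tissues. After removal of group means, r between tissues over the 12 fetuses was above 0 in 7 of 10 tissue pairs for miR-205 (median 0.04), in 4 of 10 for miR-224 (median -0.15) and in 4 of 10 for miR-452 (median -0.10). The values ran from -0.77, for miR-224 between LA and BFM, to 0.61, for miR-224 between RV and LA.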

How the data were processed

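The authors deposited 1 log2 value per transcript and NimbleGen array, made within each tissue by robust multichip averaging, that is background correction, quantile normalization and median polish. LV and RV cDNA was not amplified, LA and RA cDNA was PCR amplified, and each chamber had its own slide. The preparation and slides of BFM are not given in the sources used here. Scanner intensities were not used here. Precision is limited by how few arrays there are.

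For each tissue, limma 3.58.1 (R 4.3.3) fitted 1 mean per group to all 12 arrays, with Benjamini-Hochberg adjustment over all transcripts tested, and LV and RV together (24 arrays) for differences between ventricles. Arrays were weighted with statmod 1.5.0. Fits and likeness ranks were tested on simulated data. Permutation tests of correlations used 100000 resamples in Python 3.11.15 with numpy 2.4.6, pandas 2.3.3 and scipy 1.17.1, and figures were drawn with matplotlib 3.10.9. Named were the 3 members, the 3 transcripts closest to each, marker transcripts that moved with a member, and the microRNAs called with gestation. The members and lists were chosen with earlier results of these data known. Alternatives were other filters on variation, scaling, floors for low values, prior variance, array weights, the arrays of a window only, adjusted p as the criterion and each fetus left out. Numbers in the sample titles paired LV and RV samples, on the assumption that equal numbers mark the same animal. No file paired array transcripts with GABRE or the host gene of miR-205, which were not analysed here.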

Additional observations from a re-analysis of the deposited data

Results flagged for a closer look

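The LG effect of BPA minus its EG effect met the unadjusted criteria for 3 combinations. In LV it was 2.77 in miR-205 (SE 0.82) and 3.51 in miR-224 (SE 1.02), and in RV it was -3.43 in miR-452 (SE 1.07). Each contains the LG difference that chose the transcript, which largely fixed its outcome, so these are descriptions and no test that the windows differ. None had an adjusted p of at most 0.05. The call was lost for miR-205 without any 1 of fetuses 1, 3, 4, 5, 8, 9, 10 and 11, for miR-224 without any 1 of 1, 3, 5, 6, 7, 8, 10 and 11, and for miR-452 without any 1 of 2, 4, 6, 8, 11 and 12. As the LG controls of miR-224 have only upper limits, 3.51 depends on where their values lie: with low values raised to 0.63 it was 2.48 (SE 0.92) and the call was lost. Trend and robust settings ended the calls of both LV transcripts. For miR-205 the call also ended at an interquartile range of at least 1 (2.77, SE 1.00) and after quantile normalization (2.78, SE 0.97). For miR-452 it ended with no filter on variation (-3.43, SE 1.13) and with array weights (-1.96, SE 1.47).

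The LG effect of BPA in LV minus that in RV was 2.35 in miR-205 (SE 0.65) and 3.86 in miR-224 (SE 0.79). Both contain the LV difference that chose the transcript and are no test that the ventricles differ. All 3 LG control arrays of LV hold miR-224 at the array's lowest value. Levels of both in RV lay between 3.54 and 4.86, near the low end of those arrays, and the log2 distance from percentile 1 to percentile 10 was 0.43 to 0.55 in RV and 2.10 to 3.85 in LV, so the effects of the 2 ventricles are on unlike scales. No group of these data has 4 or more fetuses, and single fetuses were therefore not examined as outliers.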

How the results depend on the processing

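With an adjusted p of at most 0.05 as the criterion, none of the differences that chose the members passed (2.58 for miR-205 and 4.09 for miR-224 in LV, -2.66 for miR-452 in RV), 0 combinations were called in LG and 0 for LG effect minus EG effect, and 1 was called for gestation, miR-452 in BFM, where 64% of all transcripts tested passed. Trend and robust settings left 1 called for LG effect minus EG effect, and control groups only gave 1 for gestation. With array weights, the LG difference of miR-452 in RV was -1.34, although the iteration of the weights stopped there before it converged. With each fetus left out that difference ran from -3.12 to -2.19, and calls ran from 0 to 1 in EG, 0 to 2 for LG effect minus EG effect and 0 to 1 for gestation. The LG effect of miR-205 in LV minus that in RV, a description, ran from 2.13 to 2.56 and no longer met the criteria without fetus 11. With the fetus number as a replicate block, LV minus RV in LG had the same values, 2.35 (SE 0.58) for miR-205 and 3.86 (SE 0.73) for miR-224, and no call changed. The gestation difference of miR-452 in RV turned from -0.55 to 1.16 in control groups only. Causes were not tested. Of 1755 values of single transcripts and pairs under the alternatives, 1697 were counted as unchanged, since they kept their side of the criteria. Differences that were not called and changed sign are among them. The EG difference of miR-205 in RA, for example, was 0.40 over all fetuses and -0.31 without fetus 5. LV values at the bottom of an array limit what any fold change there shows.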
